A study of Mus musculus with 2 samples.

Results

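The levels of 9 genes of plasminogen activation and coagulation, of 32285 genes listed, were followed through cells of KPPC mouse pancreatic tumours. They were Serpinb2, Serpine2, Plau, Plaur, Plat, F3, F10, F13a1 and Thbd. They were taken by symbol from the gene list of both libraries, and were chosen with takinib and vehicle levels already known, so every ratio below is a description of 2 libraries and not a test. In fibroblast-like cells Serpinb2 stood at 11.5 CPM (its counts per 1000000 counts of the class) in vehicle and 1591 in takinib, while Serpine2, Plat and Thbd were lower in takinib. F13a1 and Thbd were higher in takinib macrophage-like cells, and F3, F10 and Plaur in takinib neutrophil-like cells.

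Single-cell RNA was measured in tumours of KPPC mice, an engineered model of pancreatic ductal cancer in which the pancreas itself forms the tumour. The vehicle group had 1 library from mice given vehicle for 14 days, and the takinib group had 1 library from mice given takinib, an inhibitor of the kinase TAK1, at 50 mg/kg for 14 days. Mice of both groups were KPPC and 6 weeks old, and the labels give neither the number of mice per library nor the promoter and alleles behind the KPPC name. With 1 library per group no test was possible, no difference has a replicate check, and all intervals (95%, in parentheses) cover counting error only.

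The vehicle library listed 704261 barcodes down to 0 UMIs (unique molecular identifiers, 1 per captured RNA molecule), and the takinib library 34158 barcodes with no fewer than 500 UMIs. After the same filters 9591 vehicle and 25183 takinib cells were kept, with medians of 3558 and 2891 UMIs per cell. The libraries shared 363 kept barcode sequences, 3.78% of those in vehicle, where independent draws would share 3.43%. Of the vehicle cells 3098 held UMIs of Y-linked genes without Xist and 1081 held Xist without them, so this library mixed animals of both sexes. The other vehicle cells, with neither or both, were left unassigned and entered no comparison by origin. No takinib cell held a Y-linked UMI and 14314 held Xist, so treatment and sex of origin cannot be told apart in the whole-library ratios. Cell classes were built from marker genes, and 6 had at least 100 cells in each library: fibroblast-like (601 vehicle and 276 takinib cells), epithelial-like (1651 and 1746), macrophage-like (4875 and 7039), neutrophil-like (272 and 12192), T-like (253 and 1262) and B-like (244 and 1375). All 10 fibroblast markers were detected in the fibroblast-like cells of both libraries, with summed levels of 37799 CPM in vehicle and 23010 CPM in takinib. Takinib was also set against vehicle cells with Xist alone: in fibroblast-like cells Serpinb2 was then at least 212-fold higher in takinib, and the ratio of Serpine2 was 0.0575.

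Plasmin, the protease that dissolves fibrin and cuts matrix proteins, is made from plasminogen by urokinase (Plau) or tissue plasminogen activator (Plat). Urokinase works on the cell surface, bound to its receptor (Plaur), and serpins hold the activators in check, among them PAI-2 (Serpinb2) and protease nexin-1 (Serpine2). Coagulation runs the other way: tissue factor (F3) starts the cascade, factor X (F10) leads to thrombin, thrombin makes fibrin, and factor XIII (F13a1) cross-links it. Thrombomodulin (Thbd) on endothelium turns thrombin toward the protein C anticoagulant pathway. Pancreatic cancer is known for both a dense stroma and frequent thrombosis, and tissue factor and urokinase receptor are well studied in it.

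Promoter sequences were at hand for 6 of the 9 genes, with 8 start sites, from RefSeq on build GRCm38.p6. The bases before the start were searched on both strands for the AP-1 motif TGANTCA, the CRE motif TGACGTCA and the NF-kB consensus, since TAK1 is known to act upstream of AP-1 and NF-kB. CRE shares its outer letters with AP-1, but neither motif contains the other. The 4 sequences below are those of the 3 genes that hold AP-1 and of Serpine2, which holds none. F10 and F13a1, not printed, hold none either and were also higher in takinib in some classes. They run 5′ to 3′ on the gene's strand for 250 bases up to the start, with AP-1 matches in capitals. The windows are chr1:107511173-107511422 (+ strand) for Serpinb2, chr7:24462233-24462482 (+) for Plaur, chr3:121723287-121723536 (+) for F3 and chr1:79858666-79858915 (- strand) for Serpine2.
Serpinb2 promoter: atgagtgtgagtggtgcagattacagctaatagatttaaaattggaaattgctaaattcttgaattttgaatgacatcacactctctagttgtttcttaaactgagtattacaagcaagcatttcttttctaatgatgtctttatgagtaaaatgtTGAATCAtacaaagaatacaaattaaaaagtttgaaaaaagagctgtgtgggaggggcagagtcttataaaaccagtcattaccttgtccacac
Plaur promoter: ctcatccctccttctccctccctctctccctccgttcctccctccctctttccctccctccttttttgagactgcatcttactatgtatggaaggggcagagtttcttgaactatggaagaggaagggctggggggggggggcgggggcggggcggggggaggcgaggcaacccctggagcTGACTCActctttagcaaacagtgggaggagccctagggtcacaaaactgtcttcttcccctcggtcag
F3 promoter: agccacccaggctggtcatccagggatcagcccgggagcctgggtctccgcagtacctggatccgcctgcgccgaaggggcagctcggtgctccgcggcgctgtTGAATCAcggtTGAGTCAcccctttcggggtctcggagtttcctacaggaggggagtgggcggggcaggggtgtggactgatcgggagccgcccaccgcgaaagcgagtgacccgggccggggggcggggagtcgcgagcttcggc
Serpine2 promoter: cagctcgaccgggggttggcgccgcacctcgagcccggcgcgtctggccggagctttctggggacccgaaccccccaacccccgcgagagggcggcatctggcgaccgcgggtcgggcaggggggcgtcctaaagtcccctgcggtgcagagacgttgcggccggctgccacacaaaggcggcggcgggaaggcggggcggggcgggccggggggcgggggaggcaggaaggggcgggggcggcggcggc
The Serpinb2 match TGAATCA lies 94 to 88 bases before the start, and a further listed Serpinb2 start holds the same site. In Plaur the match TGACTCA lies 69 to 63 bases before the start. F3 holds 2 matches, TGAATCA at 146 to 140 and TGAGTCA at 135 to 129 bases before the start. AP-1 was present at 4 of the 8 start sites and in 3 of the 6 genes, against 6.75% of all 32817 promoters of that length. No window of the members held CRE (1.55% of all promoters) or the NF-kB consensus (3.897%). A match of letters is a description of the window and shows no binding.

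Over the 6 classes, 43 of 54 pairs of gene and class had at least 50 summed counts in 1 library, which was the minimum for a call. Of these, 25 were at least 2-fold higher in takinib, 6 at least 2-fold lower and 12 in between. A pair that reached the minimum only through its high library had to differ, so these counts support nothing by themselves. In fibroblast-like cells 4 of 9 were higher and 3 lower, where 8.51% of 7477 genes with enough counts were higher and 13% lower. The median ratio of takinib to vehicle was 1.73 for the 9 genes and 0.942 for all genes with enough counts. In epithelial-like cells 4 of 8 were higher and 1 lower (7.42% and 8.45% of 12327 genes). In macrophage-like cells 4 of 9 were higher and 0 lower (6.64% and 5.8% of 11891). Neutrophil-like cells gave 5 of 9 higher and 2 lower, where 6.43% of 10266 genes were higher and 39.2% lower, from only 272 vehicle cells. In T-like cells 4 of 4 were higher (8.49% of 6818) and in B-like cells 4 of 4 (11.1% of 6985), with 0 lower in either (3.07% and 3.82%).

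**Figure D1:**
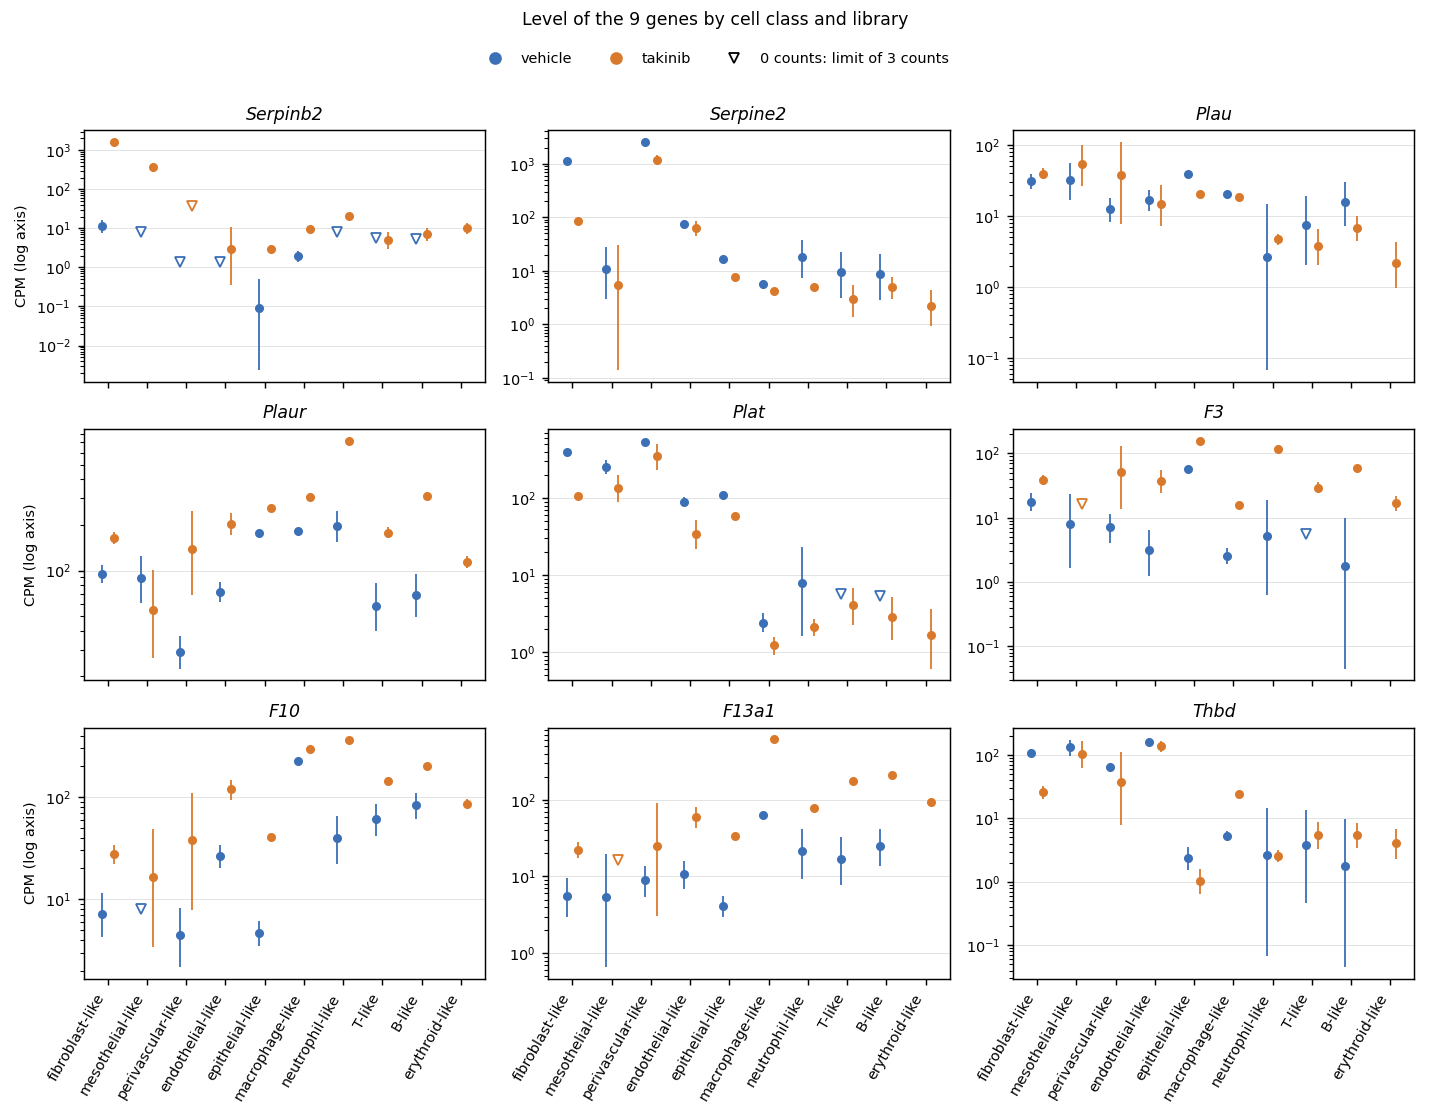
Level of each gene in CPM (log axis) in 10 cell classes, vehicle in blue and takinib in orange. Points are summed counts of the class over all its UMIs, bars are 95% Poisson intervals, open triangles mark the limit that a count of 0 allows, and classes with under 10 cells in a library have no point. Serpinb2 is highest in takinib fibroblast-like cells (1591 CPM), Serpine2 in vehicle perivascular-like cells (2493 CPM).

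Neutrophil marker RNA differed between the libraries in all 5 other classes, with takinib higher. In fibroblast-like cells the summed level of 9 neutrophil markers was 241 CPM in vehicle and 5843 in takinib, in epithelial-like cells it was 149 and 9461, and in macrophage-like cells 406 and 8645. It was 564 and 19864 CPM in T-like cells, and 762 and 38032 CPM in B-like cells. The 430 takinib erythroid-like cells, of a lineage with no known use for these genes, held Serpinb2 at 10.2 CPM, Plaur at 114, F3 at 16.9, F10 at 86.2, F13a1 at 94.5 and Thbd at 4.14. Of the 25 higher pairs, 17 lay above the erythroid-like level in takinib and 8 at or below it. The 8, where the part of free RNA was not tested, were F10 and F13a1 in fibroblast-like and epithelial-like cells, Serpinb2 in epithelial-like and macrophage-like cells, F3 in macrophage-like cells and F13a1 in neutrophil-like cells. Vehicle held only 3 erythroid-like cells. Its barcodes of 1 to 99 UMIs, which hold free RNA, gave Serpinb2 at 3.07 CPM, Serpine2 at 118, Plau at 30.7, Plaur at 96.7, Plat at 44.5, F3 at 19.96, F10 at 66.0, F13a1 at 46.1 and Thbd at 21.5.

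Serpinb2 (ENSMUSG00000062345, chr1:107511423-107535478, + strand, GRCm38) encodes PAI-2, an inhibitor of urokinase and tissue plasminogen activator that largely stays inside the cell. Fibroblast-like cells held 27 Serpinb2 UMIs in vehicle and 4918 in takinib. These are 11.5 CPM (7.58 to 16.7) and 1591 CPM (1547 to 1636), a 138-fold higher level in takinib (94.996 to 210). Of the cells, 3 of 601 held a UMI in vehicle, or 0.499% (0.103 to 1.45), and 86 of 276 in takinib, or 31.2% (25.7 to 37.0). Median depth differed, at 3153 and 7695 UMIs per cell. With every cell thinned to 1000 UMIs the shares were 0.166% and 18.1%. In takinib erythroid-like cells 2.09% held a Serpinb2 UMI at a median of 5532 UMIs. The part of free RNA in the fibroblast-like share was not tested.

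Serpinb2 was concentrated in few cells. In takinib 27 cells held 88.5% of its fibroblast-like UMIs, 58 cells held 5 or more, and the highest cell held 442. In vehicle 1 cell held 19 of the 27 UMIs. The 86 takinib cells with a Serpinb2 UMI had a median of 20826 UMIs, against 4764.5 for the 190 without. Their Serpine2 was lower, at 47.6 against 142 CPM, and so was F3, at 27.3 against 57.3. Plaur was higher, at 187 against 129 CPM. Beyond the 9 genes, the cells with Serpinb2 had more Timp1, an inhibitor of metalloproteinases (9486 against 1703 CPM), more of the chemokine Cxcl5 (1361 against 204) and more Il33 (321 against 103). Collagen Col1a1 was close in both, at 5243 and 5519 CPM, and the matrix gene Dpt was lower, at 21.9 against 162 CPM. Mesothelial markers summed to 434 and 430 CPM, neutrophil markers to 4755 and 7508 CPM. These Timp1, Cxcl5 and other genes were chosen after their values were seen, and cells were split by Serpinb2 itself, so this is a description of those cells.

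**Figure D2:**
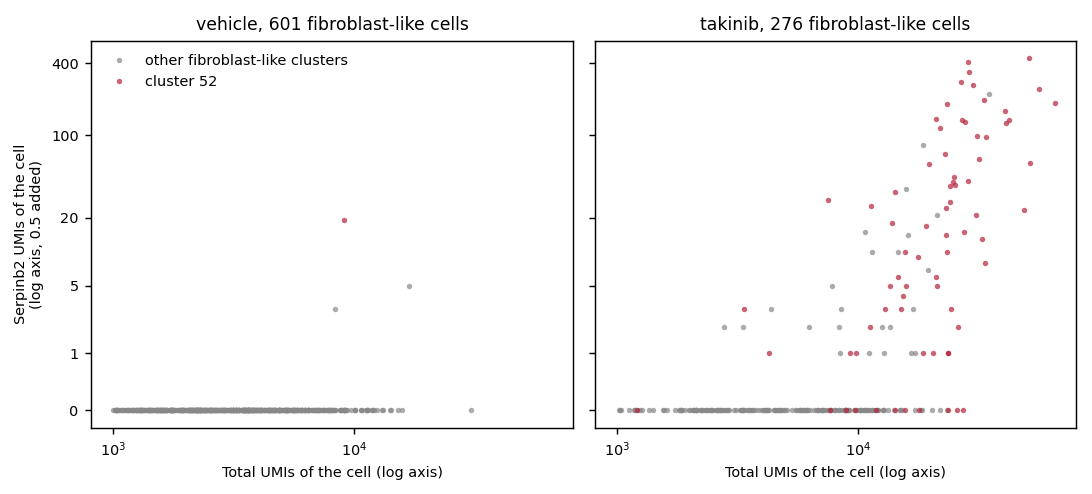
Serpinb2 UMIs (log axis, 0.5 added) against total UMIs (log axis) of each fibroblast-like cell, 601 in vehicle and 276 in takinib, with cells of cluster 52 in red. Takinib cells reach 442 Serpinb2 UMIs, most of them deep cells of cluster 52, while 3 vehicle cells hold any.

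The 6 fibroblast-like clusters differed in Serpinb2 and in their share of each library. Cluster 52, led by Serpinb2, Timp1, Cryab and Mmp3, held 73 takinib cells and 1 vehicle cell, with 4469 of the takinib UMIs. Its level was 2601 CPM, and cluster 50, led by Cxcl12 and Dcn with 39 takinib cells and 1 vehicle cell, stood at 760 CPM. Cluster 46, led by Calca, Enpp2 and Cxcl13, had both libraries: 8 UMIs and 46.0 CPM in 40 vehicle cells, and 116 UMIs and 254 CPM in 69 takinib cells, a 5.51-fold difference (2.71 to 13.1). A single takinib cell held 83 of those 116 UMIs, and without it takinib stood at 75.3 CPM and the ratio was 1.64 (0.741 to 4.10), within counting error. Cluster 45, led by Dpt and Col3a1, held 0 UMIs in 70 vehicle cells and 16 in 38 takinib cells, at least 5.41-fold higher, but 15 of the 16 were in 1 cell. Cluster 22, led by Col12a1 and Igfbp3 and the largest in vehicle, held 0 in both its 445 vehicle and 57 takinib cells. The difference in these clusters with both libraries thus rested largely on 1 takinib cell each, while clusters 52 and 50, with 90.9% and 6.45% of the takinib UMIs, held 1 vehicle cell each. Cluster 52 was partly defined by Serpinb2. Without it in both libraries the class ratio was 95.7, but its 1 vehicle cell is the one with 19 of the 27 vehicle UMIs. With that cell kept and only the takinib cells of cluster 52 left out, takinib had 449 UMIs and 327 CPM, and the ratio was 28.5 (19.3 to 43.7). Without the vehicle cell alone it was 465. Neutrophil markers summed to 3470 CPM in takinib cluster 52, 20423 in cluster 50 and 11366 in cluster 22, whose Serpinb2 was 0, and their part in the Serpinb2 difference was not tested.

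**Figure D3:**
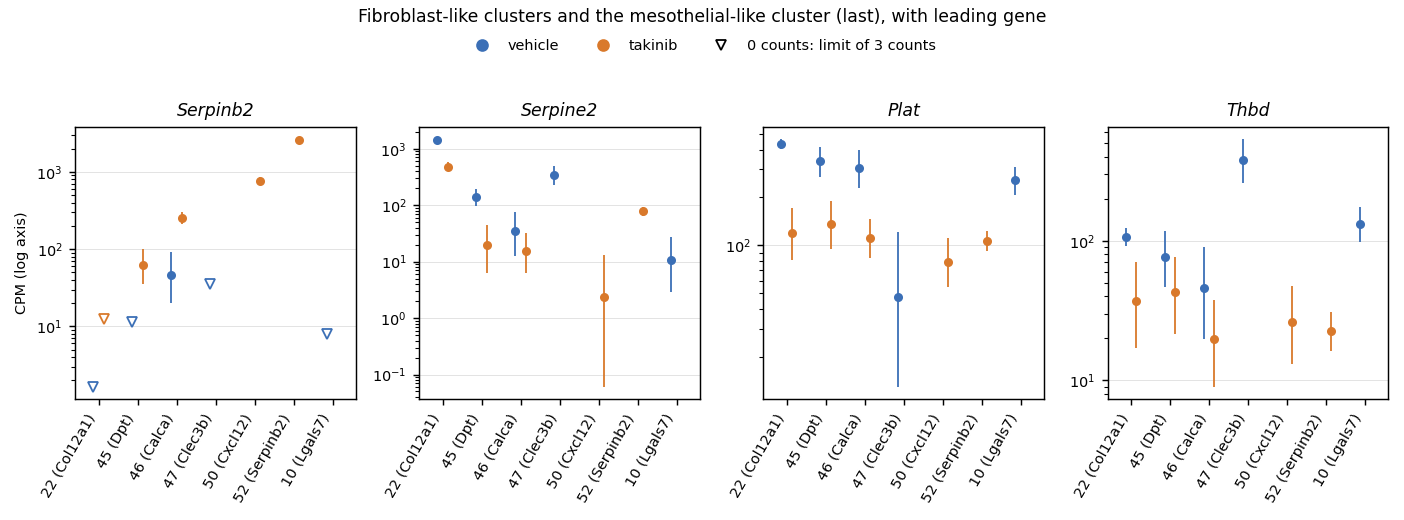
Serpinb2, Serpine2, Plat and Thbd in CPM (log axis) in the 6 fibroblast-like clusters, named by number and first leading gene, and in the mesothelial-like cluster 10. Points with 95% Poisson intervals are drawn for clusters with at least 20 cells in a library, open triangles mark the limit for a count of 0. Serpinb2 reaches 2601 CPM in cluster 52 of takinib and is 0 in cluster 22 of both, where Serpine2 was 1434 CPM in vehicle and 481 in takinib.

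The cells of fibroblast-scoring clusters were also clustered again with the 9 genes and the related lists left out of the genes used. Of the takinib Serpinb2 UMIs in these re-clustered cells, 95.1% lay in 1 sub-cluster (4817 UMIs, 1902 CPM). All kept takinib cells together held 6344. The sub-cluster had 161 takinib and 2 vehicle cells and was led by U90926, Cstdc4 and Cxcl2. The neutrophil genes S100a9, S100a8 and Retnlg were also among its leading genes, and its neutrophil markers summed to 16638 CPM. At a finer resolution most Serpinb2 lay in 2 sub-clusters. One of 54 takinib and 2 vehicle cells held 2735 takinib UMIs at 2337 CPM, with neutrophil markers at 524 CPM. That was 54.0% of the takinib Serpinb2 UMIs in the re-clustered cells. The other, of 108 takinib cells and no vehicle cell, held 2081 UMIs at 1512 CPM, with neutrophil markers at 30434 CPM. In a sub-cluster with similar cell numbers in both libraries (98 vehicle and 88 takinib cells), led by the mesothelial genes Lgals7 and Upk3b beside Pkhd1l1, Serpinb2 had 10 UMIs and 16.5 CPM in vehicle, and 232 UMIs and 313 CPM in takinib. One takinib cell held 126 of the 232, and without it the ratio was 9.17 (4.80 to 19.7). At the finer resolution a sub-cluster of 23 vehicle and 59 takinib cells, led by Cxcl13 and Calca, had 55.4 and 57.7 CPM, a ratio of 1.04 (0.455 to 2.67). In another, led by Pkhd1l1 and Upk3b with 60 vehicle and 24 takinib cells, Serpinb2 had 0 and 75 UMIs, of which 53 were in 1 takinib cell. In mesothelial-like cells, the lining of the abdominal cavity and its organs, Serpinb2 had 0 UMIs in 62 vehicle cells and 66 UMIs in 19 takinib cells, at 362 CPM, at least 44.8-fold higher. Mesothelial markers in fibroblast-like cells summed to 139 CPM in vehicle and 433 in takinib, with Muc16 at 0 in vehicle, and their part in the class difference was not tested.

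In the other classes Serpinb2 was far lower. Macrophage-like cells held 41 UMIs (1.96 CPM) in vehicle and 459 (9.71 CPM) in takinib, a 4.96-fold ratio (3.60 to 7.01) at the erythroid-like level of 10.2 CPM. Within macrophage-like cluster 3, led by Ccl8 and Cd163, the order was the reverse, at 31.3 CPM in vehicle from 16 UMIs in 2 cells and 4.83 in takinib. Neutrophil-like cells held 0 UMIs in vehicle and 646 in takinib, at 21.0 CPM, at least 2.64-fold higher. In cluster 14, the only neutrophil-like cluster with at least 20 cells of each library, Serpinb2 had 0 and 41 UMIs. Its takinib level there was 7.34 CPM and the bound 0.810, so no difference is read in that cluster. Epithelial-like cells held 1 and 59 UMIs, at 0.0916 and 2.94 CPM. Of all Serpinb2 UMIs, vehicle had 57.7% in macrophage-like cells and 38.0% in those scored as fibroblast-like, and takinib 77.5% in fibroblast-like and 10.2% in neutrophil-like cells. Vehicle cells with Xist alone held none in 121 fibroblast-like cells, the 195 with Y-linked UMIs alone held 24 and the 285 unassigned held 3. The fibroblast-like ratio ran from 20.7 in a finer clustering (Leiden resolution 2) to 738 with each library clustered on its own, with takinib higher in each of the 17 settings.

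Serpine2 (ENSMUSG00000026249, chr1:79794197-79861180, - strand) encodes protease nexin-1, a secreted inhibitor of thrombin, urokinase and plasmin. Its level was the opposite of Serpinb2 in fibroblast-like cells: 2676 UMIs and 1139 CPM in vehicle, 263 UMIs and 85.1 CPM in takinib, 13.4-fold lower (11.8 to 15.3). The share of cells with a UMI was 61.2% in vehicle and 18.8% in takinib, and takinib cells were the deeper ones (erythroid-like cells of takinib had 1.40%). Part of this moved with the clusters: cluster 22 held 445 of 601 vehicle cells and 57 of 276 takinib cells. Within cluster 22 Serpine2 was 1434 CPM in vehicle and 481 in takinib, a ratio of 0.335 (0.276 to 0.404), and within cluster 45 138 and 19.4 CPM. In cluster 46 it was 34.5 CPM in vehicle and 15.3 in takinib, from 6 and 7 UMIs. The highest level was in perivascular-like cells, pericytes and smooth muscle of vessels, with 2493 CPM in 587 vehicle cells and 1163 CPM in 15 takinib cells, 2.14-fold lower (1.74 to 2.66). Of all vehicle Serpine2 UMIs 63.1% were perivascular-like and 30.3% fibroblast-like. Over all kept cells, Serpine2 counted 8822 UMIs in vehicle and 1134 in the larger takinib library. Epithelial-like cells had 16.4 and 7.64 CPM, 2.15-fold lower in takinib (1.72 to 2.68), both below the 118 CPM of vehicle barcodes with 1 to 99 UMIs. At Leiden resolution 2 the fibroblast-like ratio was 0.176, where it was 0.0747 at resolution 1.

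Plat (ENSMUSG00000031538, chr8:22757727-22782844, + strand) encodes tissue plasminogen activator, the main activator in blood and on fibrin. In fibroblast-like cells it had 941 UMIs and 400.7 CPM in vehicle, and 331 UMIs and 107 CPM in takinib, 3.74-fold lower (3.30 to 4.25). All 3 clusters with both libraries had less Plat in takinib: 435 and 120 CPM in cluster 22, 337 and 136 in cluster 45, and 305 and 112 in cluster 46. None of the 3 ratio intervals reached 1. Cluster 52 of takinib, highest in Serpinb2, had Plat at 106 CPM. Perivascular-like cells had 532 CPM in vehicle and 354 in takinib, endothelial-like cells 90.3 and 34.3, and mesothelial-like cells 256 and 137. Epithelial-like cells had 109 CPM in vehicle and 58.6 in takinib, a ratio of 0.536 (0.494 to 0.582). Vehicle epithelial-like clusters ranged widely, from 0 UMIs in the 22 cells of cluster 21 and 6.91 CPM in cluster 25 to 237 CPM in cluster 33, led by Tnc. Cluster 6, led by the gastric mucosa genes Gkn3 and Tff2, had 11.1 CPM in vehicle. In cluster 6 Plat was higher in takinib, at 37.1 CPM (3.35-fold, 2.38 to 4.83), so the direction differed from that of the class. Cluster 33 held 276 vehicle cells and 8 takinib cells.

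Plau (ENSMUSG00000021822, chr14:20836660-20843385, + strand) encodes urokinase, the activator of the tissue. No class with at least 50 Plau UMIs in 1 library passed 2-fold. B-like cells, with only 9 and 26 UMIs, had 15.9 and 6.84 CPM, a ratio of 0.430 whose interval (0.195 to 1.04) held 1. In fibroblast-like cells it had 30.7 CPM in vehicle and 39.5 in takinib, from 72 and 122 UMIs, a ratio of 1.29 (0.954 to 1.75), so the difference is within counting error. In macrophage-like cells the levels were 20.7 and 18.7 CPM, a ratio of 0.904 (0.805 to 1.02), also within it. Epithelial-like cells were lower in takinib, at 39.1 and 20.6 CPM, 1.90-fold (1.66 to 2.18). Cluster 33 of vehicle held 288 of the 427 epithelial-like UMIs there, at 132 CPM. Among macrophage-like cells, cluster 12, led by Mmp12 and Gpnmb, was the highest in both libraries, at 62.0 and 44.3 CPM.

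Plaur (ENSMUSG00000046223, chr7:24462484-24475968, + strand) encodes the urokinase receptor, anchored to the outer membrane and used by myeloid cells in migration. Neutrophil-like cells had 74 UMIs and 196 CPM (154 to 246) in vehicle, and 21967 UMIs and 713 CPM in takinib, 3.64-fold higher (2.90 to 4.64). In cluster 14, the only neutrophil-like cluster with at least 20 cells of each library (257 and 2945), the levels were 187 and 755 CPM, a 4.03-fold difference (3.14 to 5.27). Takinib clusters ran from 230 CPM in cluster 16, led by Lst1, to 1211 CPM in cluster 15, led by Il23a. Macrophage-like cells had 184 and 304 CPM, a ratio of 1.66 (1.60 to 1.72). Of 6 macrophage-like clusters with both libraries, 4 were higher in takinib with intervals above 1, and cluster 2 (Car4, Chil3) had 293 and 281 CPM. Cluster 12 was again the highest macrophage-like cluster, at 580 CPM in vehicle and 505 in takinib, a ratio of 0.871. Epithelial-like cells had 178 and 260 CPM, a ratio of 1.46 (1.39 to 1.54), and fibroblast-like cells 94.96 and 164, a ratio of 1.73 (1.48 to 2.04). Within fibroblast-like clusters no interval left 1, and without cluster 52 the ratio was 1.05. Against vehicle cells with Xist alone the macrophage-like ratio was 0.933, since those cells had 326 CPM and cells with Y-linked UMIs 165.

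F3 (ENSMUSG00000028128, chr3:121723537-121735048, + strand) encodes tissue factor, the membrane protein that starts coagulation when blood meets it. Vehicle F3 was mainly epithelial, with 79.8% of its UMIs in epithelial-like cells. There it had 631 UMIs and 57.8 CPM (53.4 to 62.5), and in takinib 3085 UMIs and 154 CPM (149 to 160), 2.66-fold higher (2.45 to 2.91). Of the epithelial-like cells 16.8% held a UMI in vehicle and 47.0% in takinib, at medians of 5025 and 9367 UMIs, and 4.24% and 10.7% after thinning to 1000 UMIs. The takinib erythroid-like shares were 7.67% and, thinned, 2.33%. Within cluster 6 the levels were 79.7 and 149 CPM, a ratio of 1.87 (1.64 to 2.14). In cluster 35, led by Wfdc2 and Cldn4, they were 203 and 218 CPM, a difference within counting error. Cluster 25, led by Mptx1 and Spink4, had F3 at 18.0 and 70.5 CPM, a ratio of 3.93 (2.03 to 8.09). Cluster 21, led by Gkn2 and Gkn1, had 0 UMIs in 22 vehicle cells and 49 in 228 takinib cells, at least 5.56-fold higher. Cluster 30, led by Gabrp and Sox11, went the other way, at 84.1 and 43.5 CPM from 122 and 7 UMIs, but within counting error.

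Neutrophil-like cells were the other source of F3, with 44.7% of takinib UMIs against 37.9% in epithelial-like cells. They had 2 UMIs (5.29 CPM) in vehicle and 3634 (118 CPM) in takinib, a ratio of 22.3 (6.17 to 184). Takinib levels differed among neutrophil-like clusters, at 247 CPM in cluster 15, 203 in cluster 18 (Stfa2), 117 in cluster 20 (Ccl3), 36.3 in cluster 14 and 15.04 in cluster 16. In cluster 14, with both libraries, the ratio was 6.02 (1.64 to 50.0). The vehicle cells lacked clusters 18 and 20 and had 2 cells each in 15 and 16, so the class ratio sets different clusters against each other. Fibroblast-like cells had 17.9 and 39.1 CPM, 2.19-fold higher (1.53 to 3.19), and Dpt-led cluster 45 of takinib reached 109 CPM. T-like cells had 0 UMIs in vehicle and 29.5 CPM in takinib, at least 5.19-fold higher, and B-like cells 1 and 222, beside the higher neutrophil markers given above. In B-like cluster 28, with 565 takinib cells, F3 stood at 127 CPM, and in B-like cluster 7, with both libraries, at 1.79 and 6.46 CPM from 1 and 14 UMIs.

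**Figure D4:**
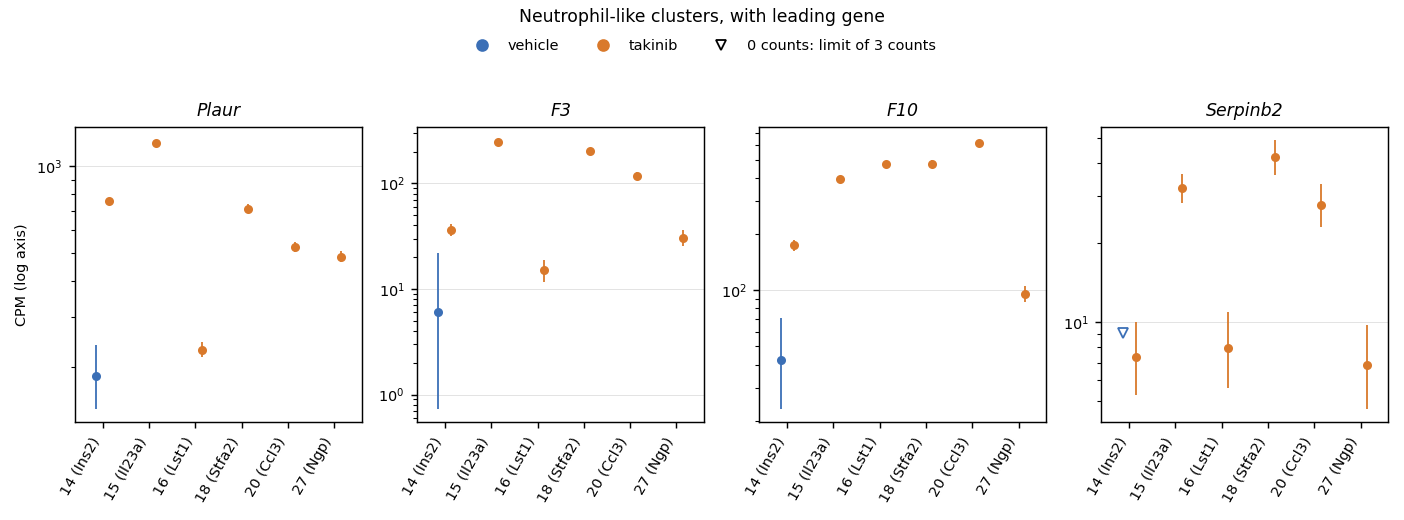
Plaur, F3, F10 and Serpinb2 in CPM (log axis) in the 6 neutrophil-like clusters, named by number and first leading gene, for clusters with at least 20 cells in a library. Vehicle has a point in cluster 14 alone, and takinib F3 runs from 15.04 CPM in cluster 16 to 247 CPM in cluster 15.

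F10 (ENSMUSG00000031444, chr8:13037308-13056676, + strand) encodes factor X, made mostly by the liver and also by macrophages. In vehicle 93.0% of its UMIs were in macrophage-like cells, and in takinib 49.3%, with 39.8% in neutrophil-like cells. Macrophage-like cells had 226 CPM (220 to 233) in vehicle and 294 CPM (289 to 299) in takinib, a ratio of 1.30 (1.26 to 1.34). Within clusters the difference was uneven: cluster 4, led by Ms4a4c and Vcan with the monocyte genes Ccr2 and Ly6c2, had 189 and 398 CPM (2.11, 1.61 to 2.81), while clusters 0, 1, 3 and 12 had intervals that held 1. Cluster 2 was the highest in vehicle, at 360 CPM, and had 336 in takinib. Neutrophil-like cells had 15 UMIs and 39.7 CPM in vehicle, and 11223 UMIs and 364 CPM in takinib, 9.18-fold higher (5.56 to 16.4). Vehicle barcodes with 1 to 99 UMIs held F10 at 66.0 CPM, above the vehicle neutrophil-like level. In cluster 14 the ratio was 4.12 (2.45 to 7.57), from 42.3 to 174 CPM, and takinib cluster 20 reached 616 CPM. With each library clustered on its own the neutrophil-like ratio was 2.45, and takinib was higher in each of 12 settings. Fibroblast-like and epithelial-like cells, at 27.5 and 40.8 CPM in takinib, stayed below the erythroid-like 86.2 CPM.

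F13a1 (ENSMUSG00000039109, chr13:36867178-37050244, - strand) encodes the catalytic A chain of factor XIII, which tissue macrophages and platelets carry. Macrophage-like cells held 88.9% of its UMIs in vehicle and 83.7% in takinib. The counts there were 1316 and 28994, or 62.8 CPM (59.4 to 66.3) and 613 CPM (606 to 620), 9.77-fold higher in takinib (9.24 to 10.3). Of the cells 11.8% held a UMI in vehicle and 56.4% in takinib, and 5.87% and 34.2% after thinning, where erythroid-like cells of takinib had 14.9% and 7.44%. F13a1 was higher in takinib in all 6 macrophage-like clusters that had 20 or more cells from each of the libraries, and all 6 intervals lay above 1. The ratio was smallest where vehicle was already high: cluster 3 had 874 and 1021 CPM, a ratio of 1.17 (1.06 to 1.29). Cluster 1, led by the MHC class II genes H2-Ab1 and H2-Eb1 and holding 3695 of the 4875 vehicle cells, had 44.0 and 139 CPM (3.16, 2.77 to 3.61). Clusters 2 and 4 had ratios of 3.91 (3.22 to 4.79) and 4.43 (3.13 to 6.50), and the cycling cluster 0, led by Pclaf and Top2a, 6.56 (4.88 to 8.99). Cluster 12 had 1 UMI in vehicle and 609 in takinib.

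The makeup of the macrophage-like class differed between libraries as well. Cluster 5, led by U90926, Ptges, Saa3 and F13a1 itself, had 1696 takinib cells and 0 vehicle cells, and held 14033 of the 28994 UMIs at 1250 CPM. Cluster 3 held 165 vehicle and 1389 takinib cells. The takinib level was 93.6 CPM in cluster 12, near the erythroid-like 94.5 CPM, and 139, 143 and 239 CPM in clusters 1, 2 and 0. The part of free RNA in these 4 clusters was not tested. T-like cells had 17.0 and 175 CPM and B-like cells 24.7 and 208 CPM. These levels were above the erythroid-like 94.5 CPM, but with cells thinned to 1000 UMIs F13a1 was found in 6.02% of T-like and 7.27% of B-like takinib cells, at or below the 7.44% of erythroid-like cells. The level and the share give opposite orders, so none is read from them. The same held for Plaur, F3 and F10 in T-like cells and for F10 in B-like cells, while the shares of Plaur (18.5% against 14.7%) and F3 (3.93% against 2.33%) in B-like cells were above the erythroid-like ones. Against vehicle cells with Xist alone, which had 18.3 CPM, the macrophage-like ratio was 33.5, and vehicle cells with Y-linked UMIs had 68.5 CPM.

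Thbd (ENSMUSG00000074743, chr2:148404466-148408188, - strand) encodes thrombomodulin, the endothelial receptor that turns thrombin into an activator of protein C. Endothelial-like cells had 358 UMIs and 161 CPM in vehicle, and 92 UMIs and 137 CPM in 98 takinib cells, a ratio of 0.852 (0.670 to 1.07), within counting error. In the larger endothelial-like cluster 23 the levels were 156 and 167 CPM, and in cluster 24 they were 186 and 68.2, a ratio of 0.367 (0.191 to 0.657). In fibroblast-like cells Thbd had 254 UMIs and 108 CPM in vehicle, and 79 UMIs and 25.6 CPM in takinib, 4.23-fold lower (3.28 to 5.52). As takinib over vehicle this is 0.236, and over 14 settings it ran from 0.0531, with every cell thinned to 1000 UMIs, to 0.323 at Leiden resolution 2. Within clusters the levels were as follows. Thbd was lower in takinib in each of the 3 clusters with both libraries, with the interval below 1 only in cluster 22 (107 and 37.3 CPM). Vehicle cluster 47, led by Clec3b and Fbln1 with 44 vehicle cells and 0 takinib cells, had the highest level, 380 CPM (260 to 537).

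Macrophage-like cells moved in the opposite direction, with Thbd at 111 UMIs and 5.29 CPM in vehicle, and 1164 UMIs and 24.6 CPM in takinib, 4.65-fold higher (3.82 to 5.70). The takinib level is above the erythroid-like 4.14 CPM, and the vehicle level below the 21.5 CPM of barcodes with 1 to 99 UMIs. Of 6 macrophage-like clusters with both libraries 4 had intervals above 1, among them cluster 1 (4.10 and 12.4 CPM) and cluster 2 (8.22 and 20.1 CPM). Cluster 3 was lower in takinib, at 37.1 and 20.6 CPM from 19 and 188 UMIs, a ratio of 0.556 (0.346 to 0.944). Takinib cluster 5 was the highest, at 49.2 CPM. Of all Thbd UMIs 37.3% were endothelial-like in vehicle, and 75.1% were macrophage-like in takinib, where 727 and 98 endothelial-like cells were kept.

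**Figure D5:**
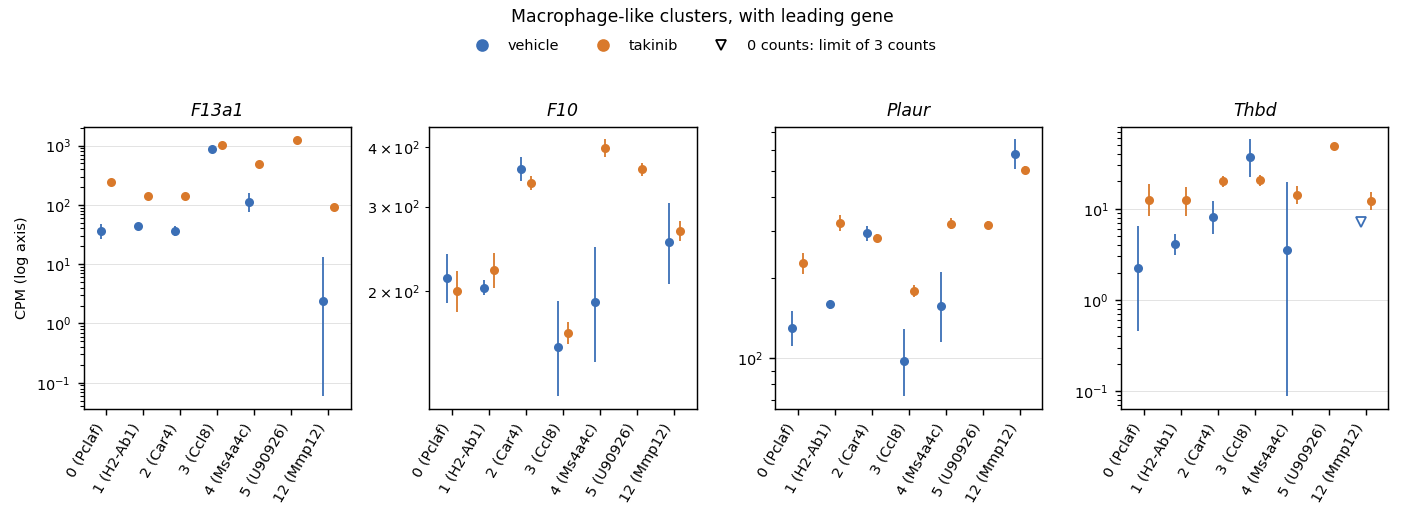
F13a1, F10, Plaur and Thbd in CPM (log axis) in the 7 macrophage-like clusters, named by number and first leading gene, vehicle in blue and takinib in orange, with 95% Poisson intervals. F13a1 is higher in takinib in each of the 6 clusters with both libraries, least in cluster 3 (874 and 1021 CPM), and cluster 5 (1250 CPM) has takinib cells alone.

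Other genes of the 2 pathways were followed through 5 lists of 66 genes in all, which were chosen with earlier results of these data known. In fibroblast-like cells 31 had enough counts, of which 6 were at least 2-fold higher in takinib and 10 lower (8.51% and 13% of all genes), with a median ratio of 0.841 against 0.942 over all genes. All 6 that were higher belong to the plasminogen list. Mmp3, a stromal matrix metalloproteinase that plasmin can activate, had 46.4 and 411 CPM, 8.85-fold higher (7.27 to 10.9). Eno1, a glycolytic enzyme that also serves as a plasminogen receptor, had 227 and 1140 CPM. Anxa2 and S100a10, which form the annexin receptor for tissue plasminogen activator and plasminogen, and Mmp9 were also among them. The lowest ratios were of the collagen receptor Mrc2, which associates with the urokinase receptor (234 and 61.1 CPM, 3.83-fold lower), the thrombin receptor F2r (132 and 42.7, 3.08-fold lower) and the protease Pcsk5 (175 and 61.5, 2.85-fold lower). Of the anticoagulant and inhibitor list 0 of 10 were higher and 4 lower (Pros1, Gas6, A2m and Serpinf1).

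In epithelial-like cells 1 of 33 list genes was higher and 7 lower (7.42% and 8.45% of all genes), with a median ratio of 0.936. The higher one was Mmp9 (6.68 and 43.7 CPM), which is also among the neutrophil markers. The lowest ratios were of the integrin chain Itgb3 (32.7 and 4.79 CPM, 6.82-fold lower), F2r (176 and 38.1, 4.61-fold lower) and the vitamin K-dependent carboxylase Ggcx (16.2 and 6.79, 2.39-fold lower). In macrophage-like cells 5 of 32 were higher and 3 lower (6.64% and 5.8% of all genes), with a median ratio of 0.989. Mmp9 was again first, at 14.2 and 112 CPM, followed at far lower levels by Mmp3 (0.429 and 1.82 CPM) and Serpinb8 (2.38 and 9.71). The lower ones were F2r (2.58 and 0.571 CPM) and the protease inhibitors Spint1 (168 and 49.5, 3.40-fold lower) and Spint2 (19.1 and 7.44, 2.56-fold lower). F2r was thus at least 2-fold lower in takinib in fibroblast-like, epithelial-like and macrophage-like cells, in the last from only 54 and 27 UMIs. Epithelial-like cluster 8, with F2r among its leading genes, held 152 vehicle and 2 takinib cells. The part of such differences in cluster makeup was not tested. Neutrophil-like cells had 3 of 28 higher and 12 lower, near the 39.2% of all genes that were lower there (6.43% higher). T-like cells had 1 of 20 higher and 0 lower (8.49% and 3.07% of all genes), and B-like cells 4 of 17 higher and 2 lower (11.1% and 3.82%).

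For each of the 9 genes the genes of most similar level were found over 12 profiles, 6 classes in 2 libraries, among 14004 genes, by Pearson r of log2(CPM + 10). Profiles of a library share its depth and free RNA, so r is a description. Nearest to Serpinb2 were Peg10, Serpina3m and the mesothelial marker Upk3b (each r = 0.97). Without the takinib fibroblast-like profile, over 11 profiles, r was 0.51, 0.48 and 0.56. Serpine2 was nearest to the matrix gene Prelp (0.99) and Plat to Lrfn3 and the laminin chain Lamb2 (0.99 each). Plau was nearest to Procr, the receptor of protein C (0.94), and Plaur to Txnrd1 (0.96). F3 was nearest to Sgms2 (0.94), F10 to the innate immune receptor Tlr2 (0.98), F13a1 to the lectin Clec4a1 (0.94) and Thbd to Htr2b (0.98).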

How the data were processed

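Values were deposited as raw UMI counts for each gene in each barcode; per the file headers, the authors ran Cell Ranger 4 on the vehicle library and version 6.1.1 on the takinib library. The submitters' processing notes also name Cell Ranger 2.1.1, STAR 2.0.4b, Subread, featureCounts 1.45, bcl2fastq and the build mm10, with no roles. Vehicle barcodes were deposited unfiltered and takinib barcodes from 500 UMIs up. Barcodes were kept with at least 1000 UMIs, 500 genes and at most 20% mitochondrial UMIs. Scrublet's automatic threshold removed 281 vehicle doublets, and in takinib, where it marked 0.00373%, the highest 6% of scores were removed, 1607 barcodes. Both libraries were clustered together (scanpy 1.11.5, igraph 0.11.9, 2000 variable genes, 30 components, 15 neighbours, Leiden resolution 1), with no library correction.

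Clusters were named from 17 marker lists. The rule for names was set after the data were seen. Each marker's CPM in a cluster was scaled by 20 CPM plus its maximum over clusters, the scaled levels were averaged over a list, and the list with the highest average gave the name. At least 3 markers had to be detected in at least 10% of cells above a scaled level of 0.2. A cluster whose second score reached 0.75 of the best was clustered again at resolution 0.5, without the 9 genes and the pathway lists, and its parts named. Clusters or parts stayed unnamed with a close second score, too few detected markers or more leading genes from another list. These held 216 vehicle and 463 takinib cells in all. Counts were summed per class and library and divided by the class's UMIs (CPM), with exact Poisson intervals for levels, exact Clopper-Pearson intervals for shares and exact conditional binomial intervals for ratios (scipy 1.17.1). A count of 0 was set to 3 counts over the class, and the ratio is then a bound. The functions were tested on simulated counts. A call is a ratio of at least 2 or at most 0.5 with 50 counts in 1 library. The 9 genes and all lists were chosen with earlier results of these data known. All 9 genes are named. Of the lists, the 3 highest and 3 lowest ratios past 2-fold in fibroblast-like, macrophage-like and epithelial-like cells are named with values, apart from a gene not reported here, and for likeness the nearest 3 genes or fewer. Gene positions are from GENCODE M21. Another 12 settings were tried, with 5 more chosen after seeing the data.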

Additional observations from a re-analysis of the deposited data

Results flagged for a closer look

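Thbd moved in opposite directions in 2 classes of cells of the same libraries. In macrophage-like cells its level in takinib was 4.65 times that in vehicle, and in fibroblast-like cells 0.236 times. The difference between the classes was not tested, since each group has 1 library.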

How the results depend on the processing

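No paired analysis was possible because each group holds 1 library. Over 12 other settings and 5 chosen after seeing the data, 613 values were recomputed, of which 479 stayed within the counting interval of the value reported or within 1.5 times a count, 134 moved further and 0 reversed a called direction. The ratio of Serpinb2 in fibroblast-like cells, 138, became 20.7 at Leiden resolution 2, 738 with each library clustered on its own, 74.5 with 10 CPM added to each level and at least 212 against vehicle cells with Xist alone. It became 465 without the vehicle cell of most Serpinb2 UMIs, 128 without the takinib one, and 28.5 with the cluster of highest Serpinb2 left out of takinib only. The 25 higher pairs became 16 against those vehicle cells, and the 6 lower pairs became 10 with each library clustered on its own and 3 with 10 CPM added. Of the takinib Serpinb2 UMIs in the re-clustered cells, the share in the top sub-cluster, 95.1%, became 54.0% at resolution 1. The causes were not tested. With at most 10% mitochondrial UMIs, Serpinb2, Serpine2, Plau and Thbd gave no usable bound in neutrophil-like cells, nor did F3 in T-like cells against vehicle cells with Xist alone. At least 2000 UMIs and 1000 genes left too few vehicle neutrophil-like cells for a value. Depth limits ratios that rest on under 10 vehicle UMIs, among them F3 in neutrophil-like and B-like cells and Serpinb2 in epithelial-like cells.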
